A study of Mus musculus with 4 samples.

Results

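The immediate early genes Fos, Fosb, Jun, Junb, Egr1, Dusp1, Atf3, Ier2, Nfkbia and Zfp36 were followed across the leukocytes of EO771 mammary tumors. The rule names the genes and holds no threshold on a measured value, but the list was chosen with earlier results of these data known. Its 10 genes were all found among the 32285 genes of the deposited table of uncorrected counts. EO771 is a mouse mammary carcinoma cell line, and it was injected into the mammary fat pad of female C57BL/6 mice. The hosts were 2 Csf1rfl/fl mice, which carry loxP-flanked alleles of the receptor for macrophage colony-stimulating factor, and 2 Lyve1CreCsf1rfl/fl mice, which also carry Cre under the Lyve1 promoter, so that both genotypes share the floxed alleles. The Cre acts in any cell that has used the Lyve1 promoter, which lymphatic endothelium uses as well as macrophages, and the ages of the tumor-bearing mice are not given in the sources used here. Tumors of the same size were digested with enzymes, and cells were stained for viability, CD45 and hashtags, and viable CD45+ cells were sorted and captured for 3′ counting of unique molecular identifiers (UMIs), each of which marks 1 captured transcript. Each of the 2 Chromium runs pooled 1 tumor of each genotype, so that n = 2 tumors per genotype and 1 tumor of each genotype per run.

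Immediate early genes are transcribed within minutes of a stimulus, without new protein synthesis, and their transcripts are short-lived. Fos, Fosb, Jun and Junb encode subunits of the AP-1 transcription factor, Atf3 a related leucine zipper factor and Egr1 a zinc finger factor, whereas Dusp1, Nfkbia and Zfp36 encode brakes on signaling. In leukocytes these genes answer growth factors, antigen receptors and microbial products, and they are also known to answer the warming, enzymes and shear of tissue digestion, and no undigested sample was measured here.

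All values are levels in UMIs per 10000 UMIs of a cell type in a tumor, unless another scale is named. Cells were placed in types by gates on lineage markers, none of which is an immediate early gene, and a cell in no gate or in several gates was left out. Of 28429 kept cells, 19225 entered a gate and 15 types with at least 50 cells were described, among them 4801 neutrophils, 2504 Ly6c2-high monocytes, 2534 CD8 T cells and 163 tumor or stromal cells that passed the CD45 sort. All 10 neutrophil markers, all 8 C1q macrophage markers and all 8 mature dendritic cell markers were highest in their own gate. Ly6c2 and Hp were not highest in the Ly6c2-high monocytes, 4 of 8 markers were not highest in the Arg1 macrophages or the Cd209a dendritic cells, and Cd3e, Cd3d and Cd3g were not highest in the conventional CD4 T cells. The tumors held 4771 to 8699 kept cells with 27686362 to 56715743 UMIs and a median of 3721 to 4657 UMIs per cell. The runs shared 60 barcode sequences among the 28429 kept cells. The Scrublet caller marked 12.5% to 25.5% of the kept cells of a tumor as doublets, and the cells in no gate or in several gates held 40.4% such calls against 5.04% of the neutrophils.

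The upstream sequences of 3 members are shown because they stand for an early factor pair and a feedback inhibitor, and because none of the 3 windows overlaps an annotated exon. Fos and Junb, AP-1 subunits, and Nfkbia, which encodes the inhibitor that holds NF-kB in the cytoplasm, were read from the RefSeq promoter table of mm10, which matched 8 of the 10 members. Each run is the 250 bases before the start, 5′ to 3′ on the strand of the gene. Capitals mark the letters TGACG, which form the core of the cyclic AMP response element, the letters TATAAA and the NF-kB site.

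Fos, chr12:85473640-85473889, plus strand: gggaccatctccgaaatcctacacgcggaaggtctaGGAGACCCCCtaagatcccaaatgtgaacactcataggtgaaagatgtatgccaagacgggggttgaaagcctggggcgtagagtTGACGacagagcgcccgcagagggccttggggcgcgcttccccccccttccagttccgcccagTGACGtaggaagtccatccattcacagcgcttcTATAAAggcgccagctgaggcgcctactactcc
Junb, chr8:84978749-84978998, minus strand: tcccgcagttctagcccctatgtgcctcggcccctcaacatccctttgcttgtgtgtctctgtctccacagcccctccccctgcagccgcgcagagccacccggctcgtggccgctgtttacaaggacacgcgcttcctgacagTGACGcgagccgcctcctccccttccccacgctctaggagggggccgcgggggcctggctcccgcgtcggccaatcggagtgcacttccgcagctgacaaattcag
Nfkbia, chr12:55492648-55492897, minus strand: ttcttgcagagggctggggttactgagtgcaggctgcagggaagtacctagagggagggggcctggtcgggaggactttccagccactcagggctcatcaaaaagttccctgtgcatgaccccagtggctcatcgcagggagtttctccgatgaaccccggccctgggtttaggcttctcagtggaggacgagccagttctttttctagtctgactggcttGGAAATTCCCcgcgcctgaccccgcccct

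On either strand, the Nfkbia window held an NF-kB site 29 bases before the start, the Fos window held an NF-kB site at 214 bases, TGACG at 129 and 66 bases and the letters TATAAA at 33 bases, and the Junb window held TGACG at 106 bases. Over the 8 windows, TGACG was found in 5, against 17.8% of 32841 promoters of the same length, and the NF-kB site in 3, against 3.90% of promoters. The full element TGACGTCA, which contains TGACG, was found in 1 window, that of Dusp1, at 143 bases, against 1.55% of promoters. The letters GCGNGGGCG of the EGR site were found in 2 windows against 4.70%, TATAAA in 1 against 12.4%, the CArG box in 1 against 1.47%, and TGANTCA of AP-1 in 0 of 8 against 6.75%. These matches describe letters in a short window and not binding.

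Neutrophils held the highest mean level of 8 of the 10 genes, and plasmacytoid dendritic cells that of Jun and Fosb. The plot of levels by cell type shows neutrophils apart from all other types for Junb, Egr1, Dusp1, Nfkbia and Zfp36. For Fos every neutrophil value lay above those of the type next in order but not above those of the Arg1 macrophages (3.88 to 7.31), whereas for Fosb, Jun, Atf3 and Ier2 the ranges of the leading types overlapped. Tumor or stromal cells held the lowest mean of 7 genes. The exceptions at the low end were Jun in cDC1, Atf3 in regulatory T cells and Nfkbia in plasmacytoid dendritic cells. These levels are shares of the UMIs of a type. Tumor or stromal cells held a median of 46425 UMIs per cell, against 1978 in neutrophils. The low rank therefore holds for shares only. For Ier2, 0.619 per 10000 of so many UMIs is more per cell than the 0.720 UMIs of a neutrophil. The types were not ranked by UMIs per cell for the 7 genes.

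**Figure D1:**
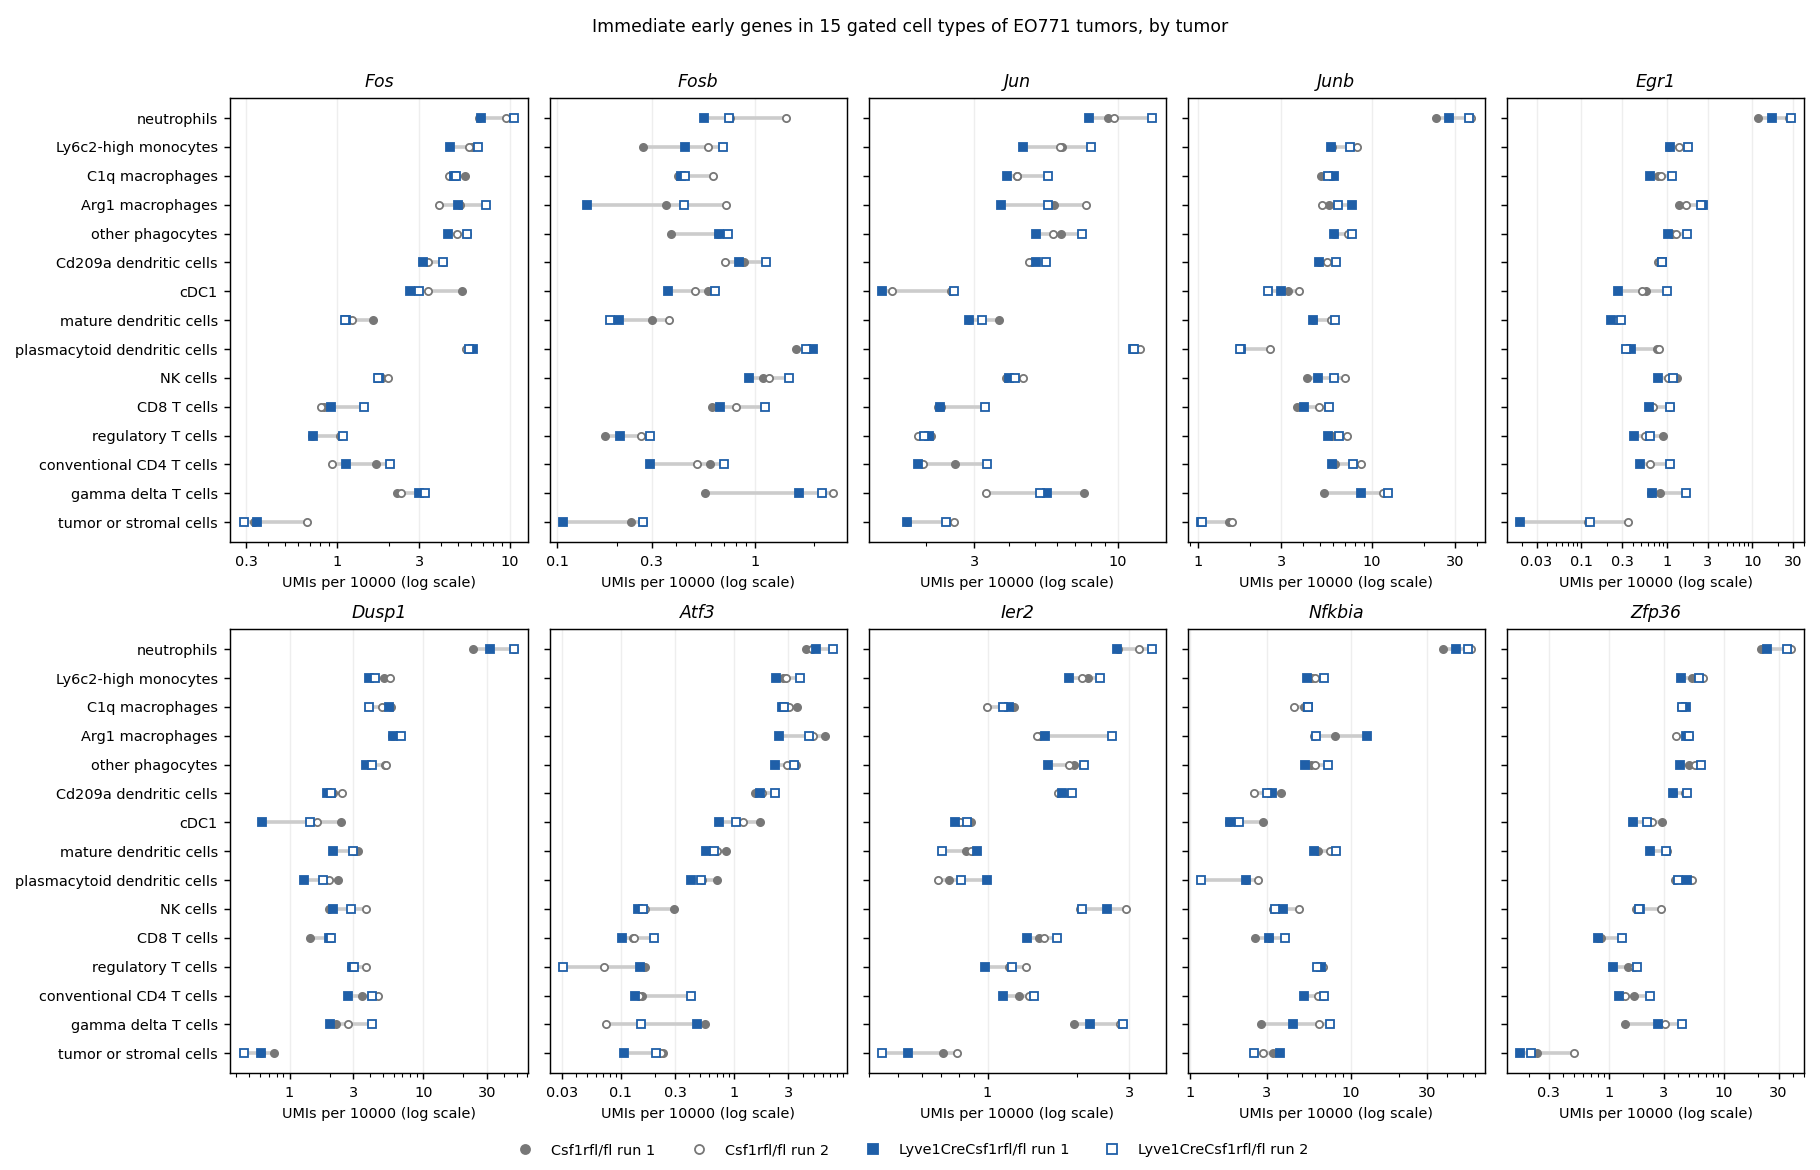
Level of each gene in UMIs per 10000 (log scale) in 15 gated cell types, with 1 point per tumor and a gray line from the lowest to the highest tumor. Neutrophils have the highest mean in 8 panels and plasmacytoid dendritic cells in the Jun and Fosb panels.

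Among the AP-1 genes, Junb was the one with the widest gap. In neutrophils its level was 23.4 (run 1) and 37.4 (run 2) for Csf1rfl/fl and 27.9 and 36.2, in the same order of runs, for Lyve1CreCsf1rfl/fl, a mean of 31.2 ± 6.73 (SD, n = 4). The gamma delta T cells came next with 5.29 to 12.3, so that the neutrophil mean was 3.30-fold higher and no value overlapped. The lowest Junb levels, 1.04 to 1.57, were in tumor or stromal cells.

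Fos, the classic AP-1 partner of Jun, was 6.68 and 9.46 in neutrophils of the Csf1rfl/fl tumors and 6.84 and 10.6 in those of the Lyve1CreCsf1rfl/fl tumors. Its next types, plasmacytoid dendritic cells at 5.56 to 6.09 and Ly6c2-high monocytes at 4.54 to 6.56, overlapped each other, and the neutrophil mean was only 1.45-fold above the former. Regulatory T cells had 0.718 to 1.09, close to the 0.809 to 1.44 of CD8 T cells.

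Jun, the AP-1 subunit that can also pair with itself, was highest in plasmacytoid dendritic cells, with 11.4 and 12.0 in the Csf1rfl/fl tumors and 11.4 and 11.5 in the Lyve1CreCsf1rfl/fl tumors. Neutrophils followed at 7.87 to 13.3, a range that includes all 4 of those values. The spread was uneven: the SD was 0.305 in plasmacytoid dendritic cells and 2.33 in neutrophils. The lowest type, cDC1, had a mean of 1.97.

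Fosb, whose product replaces Fos in the dimer, had the same leading type, with 1.61 to 1.96 in plasmacytoid dendritic cells. Gamma delta T cells had 0.556 to 2.50, NK cells 0.931 to 1.50 and neutrophils 0.555 to 1.44, and all 14 neighboring pairs of types overlapped for this gene. Gamma delta T cells numbered only 110, and 10 of them came from the Csf1rfl/fl tumor of run 1. The leading type of Fosb also differed when each cell was thinned to 1000 UMIs or when the level was averaged over cells, and for the other 9 genes it did not.

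Atf3, a stress-induced repressor of inflammatory genes, was highest in neutrophils and macrophages. It was 4.30 and 4.80 in neutrophils of the Csf1rfl/fl tumors and 5.22 and 7.44 in those of the Lyve1CreCsf1rfl/fl tumors, 2.48 to 6.25 in Arg1 macrophages and 2.33 to 3.83 in Ly6c2-high monocytes. In NK cells, CD8 T cells and regulatory T cells no tumor exceeded 0.292, and the 196 Atf3 UMIs of 2534 CD8 T cells came from all 4 tumors together. The Arg1 macrophages overlapped both other myeloid types, neutrophils and monocytes did not overlap each other, and none of the 3 overlapped the 3 lymphoid types. Mature dendritic cells (0.563 to 0.851) and plasmacytoid dendritic cells (0.413 to 0.700) lay between.

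Egr1, which answers mitogen-activated protein kinase signaling, had the largest gap of the 10 genes. Neutrophils held 11.6 and 27.1 in the Csf1rfl/fl tumors and 16.9 and 28.0 in the Lyve1CreCsf1rfl/fl tumors, with a mean of 20.9 ± 8.01 (SD, n = 4). Arg1 macrophages, next in order, held 1.39 to 2.62, and the neutrophil mean was 10.2-fold higher. The lowest levels were those of mature dendritic cells, 0.225 to 0.289, and of tumor or stromal cells, 0.0194 to 0.351, where all 4 tumors gave 105 UMIs.

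The 3 feedback genes were each highest in neutrophils. Dusp1, the phosphatase that switches off p38 and JNK, was 23.5 and 47.5 in neutrophils of the Csf1rfl/fl tumors and 31.7 and 47.9 in those of the Lyve1CreCsf1rfl/fl tumors, 6.12-fold above the mean of Arg1 macrophages. Nfkbia was 37.6 and 56.7, and 45.2 and 54.1, which was 5.93-fold above Arg1 macrophages. Zfp36, whose product tristetraprolin destabilizes cytokine mRNA, was 21.3 and 38.2, and 23.9 and 35.6, which was 5.34-fold above Ly6c2-high monocytes.

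In each of these genes both run 2 tumors were higher in neutrophils than both run 1 tumors. Outside neutrophils, Nfkbia was 5.94 to 8.06 in mature dendritic cells and 6.14 to 6.78 in regulatory T cells, and 1.17 to 2.64 in plasmacytoid dendritic cells. Zfp36 was 0.796 to 1.30 in CD8 T cells and 0.170 to 0.499 in tumor or stromal cells. Ier2, a nuclear protein of less defined function, varied least between types as a share of UMIs. Its mean ran from 0.619 in tumor or stromal cells to 3.07 in neutrophils, a 4.97-fold range against 136-fold for Egr1. Both ranges start at tumor or stromal cells, and neither was computed in UMIs per cell.

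Several of the genes were also seen together in the same neutrophils, which high levels alone can give. Whether they were seen together more often than their levels give was not tested. After each cell was thinned to 1000 UMIs, which kept 4656 of 4801 neutrophils, 67.2% to 82.3% of neutrophils of a tumor held UMIs of at least 5 of the 10 genes. The share was 12.4% to 23.1% in Ly6c2-high monocytes and 1.87% to 6.42% in CD8 T cells. Neutrophils with UMIs of none of the 10 genes made up 0.0666% to 0.458%, against 25.1% to 32.4% of CD8 T cells.

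**Figure D2:**
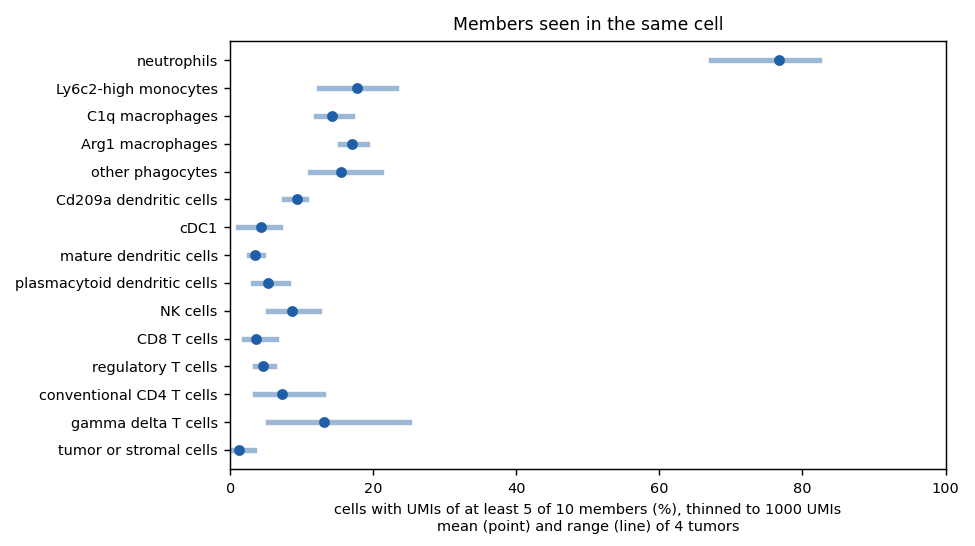
Share of cells with UMIs of at least 5 of the 10 genes after thinning each cell to 1000 UMIs, as the mean (point) and range (line) of 4 tumors. Neutrophils lie between 67.2% and 82.3%, and no other type has a tumor above 25.0%.

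No cell type can be taken to lack these genes, so free RNA was gauged by the granule transcripts S100a8 and S100a9, whose level outside the neutrophil gate was held low by the gates themselves. In CD8 T cells that level was 0.157% to 0.222% of the neutrophil level, and in Ly6c2-high monocytes 0.351% to 0.423%. The same share of the neutrophil Egr1 level equalled 1.87% to 6.17% of the Egr1 measured in CD8 T cells and 3.82% to 8.19% of that in Ly6c2-high monocytes. In tumor or stromal cells it equalled 9.16% to 140% of the Egr1 measured, and in regulatory T cells 4.52% to 43.5% of the Atf3. Within neutrophils, the levels of pairs of genes across 4656 thinned cells were weakly related: r was 0.253 to 0.334 for Junb with Zfp36 and -0.185 to -0.0409 for Fos with Nfkbia over the 4 tumors.

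To compare neutrophils with Ly6c2-high monocytes, another short-lived blood-derived myeloid cell, UMIs were summed per tumor and the 2 types were paired by tumor in edgeR's quasi-likelihood test. All 10 genes were higher in neutrophils, where 36.7% of 8964 genes were called higher and 38.4% lower. The log2 fold change was 4.98 for Egr1 (SE 0.14, adjusted p = 4.44e-16, edgeR), 4.07 for Nfkbia (SE 0.11), 4.01 for Dusp1 (SE 0.16), 3.46 for Zfp36 (SE 0.11) and 3.25 for Junb (SE 0.10). It was between 1.59 and 1.96 for Ier2, Fos, Jun, Fosb and Atf3. Every gene was higher in 4 of 4 tumors, and for 8 of them the ranges of the types did not overlap, Fosb and Jun being the exceptions. The share of all genes that showed either was not counted, here or in the other pairs of types.

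The size of these differences depended on the scale. Neutrophils are small in RNA, with a median of 1978 UMIs per cell against 4542 in Ly6c2-high monocytes, and S100a8 and S100a9 alone took 1291 to 1803 of each 10000 UMIs. The median of all genes was -0.14 on the log2 scale with TMM factors and -1.20 with total UMIs as the only scaling, under which 1618 genes (18.0%) were higher and 6183 (69.0%) lower, against 3289 and 3446 with TMM. The 10 genes were still all called higher with total UMIs, by 0.52 for Ier2 to 3.91 for Egr1.

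Counted as UMIs per cell, only 5 of the 10 genes were higher in neutrophils. A neutrophil held a mean of 4.75 Egr1 UMIs against 0.622 in a Ly6c2-high monocyte, 8.66 against 2.37 of Dusp1, 7.34 against 3.31 of Junb, 11.5 against 2.86 of Nfkbia and 6.91 against 2.73 of Zfp36. The other 5 genes had fewer UMIs per neutrophil, with 1.93 against 2.77 for Fos, 2.26 against 2.97 for Jun, 1.24 against 1.37 for Atf3, 0.720 against 1.02 for Ier2 and 0.212 against 0.227 for Fosb. Going from UMIs per 10000 to UMIs per cell lowered the log2 ratio of every one of the 10 genes by nearly the same amount, 0.90 to 1.08, since a neutrophil holds fewer UMIs. The 5 genes below 0 per cell are therefore those whose ratio per 10000 was smallest, at 0.52 to 0.89.

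**Figure D3:**
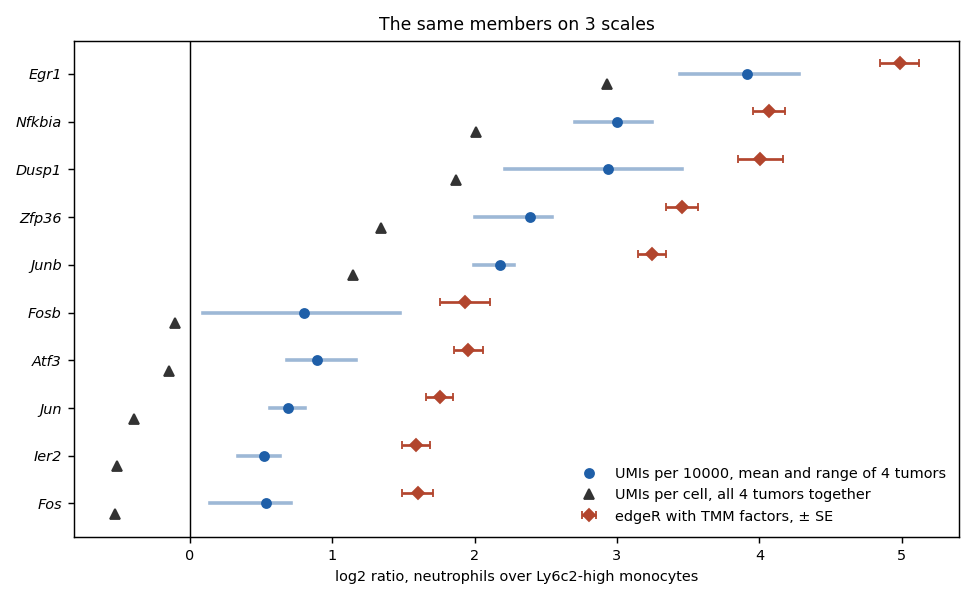
Log2 ratio of neutrophils to Ly6c2-high monocytes for each gene as the edgeR log2 fold change with TMM factors ± SE (diamonds), as UMIs per 10000 with the mean and range of 4 tumors (circles and lines) and as UMIs per cell over all tumors (triangles). The triangles of Egr1, Nfkbia, Dusp1, Zfp36 and Junb lie above 0 and those of the other 5 genes below 0.

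The wider early response was counted between the same 2 types. Of the other early response genes, 24 of 26 tested were higher and 2 lower, with a median log2 fold change of 2.76, led by Csrnp1 (4.76, SE 0.12), Plk3, a stress-activated kinase (4.58, SE 0.12), and Gadd45b (3.97, SE 0.11). Of the other NF-kB feedback genes 11 of 12 were higher and 0 lower (median 0.89), with Nfkbiz at 4.50 (SE 0.12) and Tnfaip3, which encodes the deubiquitinating enzyme A20, at 4.22 (SE 0.13). The list under this name also holds genes of the NF-kB subunits themselves, namely Nfkb1, Nfkb2, Rel, Relb and Rela. All 6 tested mRNA decay factors were higher (median 2.70), among them Zfp36l1 at 3.40 (SE 0.13).

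Of the early response cytokines and chemokines, 12 of 14 were higher and 1 lower (median 4.59), with Cxcl2, a neutrophil-attracting chemokine, at a mean of 473 against 11.2 UMIs per 10000. Other AP-1 genes were higher in 11 of 14 and lower in 1 (median 1.48), other EGR and NR4A factors in 6 of 7 and 0 (median 1.32), and serum response factor and its partners in 4 of 7 and 1 (median 1.02). The dual-specificity phosphatases were split, 3 of 8 higher and 4 lower (median -0.61), with Dusp5 at 3.84 (SE 0.15) and Dusp3 at -2.36 (SE 0.23). Heat shock genes were also split, 7 of 14 higher and 5 lower (median 0.36), and Hspa8 was lower by -1.14 (SE 0.10), at 4.05 against 18.9 UMIs per 10000.

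The median of all genes was negative with both scalings, at -0.14 with TMM factors and -1.20 with total UMIs only. With total UMIs only, the medians of the NF-kB feedback genes (-0.18), serum response partners (-0.055) and heat shock genes (-0.71) turned negative. The medians of the other lists kept their sign. A change of scaling moves the log2 fold changes of all genes by nearly the same amount. The distance of a list from the median of all genes is therefore nearly fixed and cannot test the scaling. It was 1.02 for NF-kB feedback genes with either scaling, 1.15 for serum response partners, 0.49 for heat shock genes and 1.61 for other AP-1 genes. For early response genes it was 2.90 with TMM factors and 2.89 with total UMIs, for cytokines and chemokines 4.72 and for the phosphatases -0.47. The counts of calls moved with the scaling. With total UMIs only, 12 of 14 cytokines and chemokines were called higher and 2 lower, 21 of 26 early response genes and 3, 5 of 6 decay factors and 0, 8 of 14 other AP-1 genes and 4, 3 of 7 EGR and NR4A factors and 1, 4 of 12 NF-kB feedback genes and 5, 3 of 7 serum response partners and 3, 2 of 8 phosphatases and 5, and 1 of 14 heat shock genes and 9.

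As a share of UMIs, macrophages that express complement C1q held less of most of these genes than Ly6c2-high monocytes. They held a median of 5276 UMIs per cell against 4542, so that the smaller differences need not hold per cell. UMIs per cell were not compared here or in the pairs of types below. In the paired edgeR test 0 genes were higher, where 13.0% of 8846 genes were called higher, and 7 were lower, where 16.3% were called lower. Ier2 was lower by -0.98 (SE 0.09, adjusted p = 2.20e-08, edgeR), with 0.995 to 1.22 in C1q macrophages and 1.88 to 2.38 in monocytes. It was the only gene whose ranges did not overlap.

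Egr1 was lower by -0.69 (SE 0.09) and Jun by -0.52 (SE 0.07), both in 4 of 4 tumors, and Zfp36, Junb, Nfkbia and Fos by -0.41, -0.33, -0.30 and -0.29, each in 3 of 4 tumors. The exception in each of those 4 genes was the Lyve1CreCsf1rfl/fl tumor of run 1. Dusp1 was 3.94 to 5.74 in macrophages and 3.91 to 5.63 in monocytes, and neither it nor Atf3 or Fosb was called. With stricter gates, only 4 of the 7 were called, and without the Csf1rfl/fl tumor of run 2 only 5, with Fos and Nfkbia at adjusted p = 0.091 and 0.075 in edgeR.

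Around them, none of the 12 other NF-kB feedback genes was higher and 5 were lower (median -0.24, against -0.0037 for all genes), among them Nfkb1 at -0.54 (SE 0.09). The early response genes were split, 5 of 25 higher and 8 lower (median -0.19), with Klf2 lower by -1.03 (SE 0.11) and Myc higher by 1.38 (SE 0.22). Egr2 was higher by 1.08 (SE 0.20) where Nr4a1 was lower by -1.14 (SE 0.14), the list giving 1 of 6 higher and 2 lower. Other AP-1 genes gave 2 of 13 higher and 4 lower, phosphatases 0 of 8 and 3, decay factors 1 of 6 and 2, heat shock genes 4 of 14 and 3, cytokines 4 of 12 and 2, and serum response partners 0 of 7 in either direction.

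Between the dendritic cell gates the 10 genes differed in both directions. Mature dendritic cells, which carry Ccr7 and Fscn1, were compared with Cd209a dendritic cells: 3 genes were higher, where 31.6% of 8273 genes were called higher, and 7 lower, where 32.2% were called lower. Nfkbia was 6.24 and 7.40 in mature cells of the Csf1rfl/fl tumors and 5.94 and 8.06 in those of the Lyve1CreCsf1rfl/fl tumors, against 3.68 and 2.50, and 3.23 and 3.03, in Cd209a cells. The ranges did not overlap, and the log2 fold change was 1.39 (SE 0.11, adjusted p = 3.36e-09, edgeR).

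Dusp1 was also higher in 4 of 4 tumors, by 0.64 (SE 0.09), with 2.13 to 3.26 against 1.92 to 2.47. Of the transcription factor genes other than Junb, Egr1 was lower by -1.47 (SE 0.12), Fosb by -1.44 (SE 0.18), Fos by -1.30 (SE 0.09), Atf3 by -1.12 (SE 0.12) and Jun by -0.44 (SE 0.08), with no overlap between the types for any of them. Ier2 was lower by -0.86 (SE 0.10) and Zfp36 by -0.26 (SE 0.08), also without overlap. Junb was called higher by 0.20 (SE 0.07) although its level was lower in 3 of 4 tumors, and with total UMIs as the only scaling its value turned to -0.04 (adjusted p = 0.585, edgeR). That scaling moved the median of all genes to -0.24 and gave 1900 genes higher and 3529 lower, against 2611 and 2662 with TMM factors.

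Nfkbia had company: 10 of 12 other NF-kB feedback genes were higher and 1 lower (median 0.97, against 0.00 for all genes), with Relb at 3.16 (SE 0.10), Nfkbib at 2.01 (SE 0.10) and Nfkb2 at 1.85 (SE 0.10). Of these, Relb and Nfkb2 encode subunits of NF-kB. Among the ZFP36 family and its partners, 2 of 6 were higher and 2 lower, and the relatives of Zfp36 diverged, with Zfp36l1 higher by 2.24 (SE 0.09) and Zfp36l2 lower by -2.91 (SE 0.11). Of the other EGR and NR4A factors 2 of 6 were higher and 3 lower, with Nr4a3 higher by 2.69 (SE 0.20) and Egr2 lower by -1.45 (SE 0.40). Of the heat shock genes 0 of 13 were higher and 8 lower (median -0.26), with Hspa5 lower by -1.51 (SE 0.09).

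The other lists were mixed in these dendritic cells. Early response genes gave 8 of 27 higher and 13 lower, with Gadd45b higher by 3.51 (SE 0.12) and Myc lower by -2.67 (SE 0.31). Other AP-1 genes gave 4 of 13 and 5, phosphatases 5 of 8 and 3, serum response partners 3 of 7 and 1, and cytokines 4 of 12 and 3.

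In the lymphoid gates, CD8 T cells held lower levels than NK cells as shares of UMIs. The median was 4491.5 UMIs per CD8 T cell against 3281 per NK cell, so that the smaller differences need not hold per cell. Of the 10 genes 0 were higher, where 12.6% of 9374 genes were called higher, and 9 were lower, where 13.5% were called lower. Zfp36 was 0.852 and 0.796 in CD8 T cells of the Csf1rfl/fl tumors and 0.797 and 1.30 in those of the Lyve1CreCsf1rfl/fl tumors, against 1.73 to 2.86 in NK cells, a log2 fold change of -1.18 (SE 0.15, adjusted p = 2.02e-05, edgeR). Fos, at -0.93 (SE 0.13), Jun, at -0.78 (SE 0.10), and Ier2, at -0.67 (SE 0.11), were also without overlap. Cycling cells made up 30.6% of CD8 T cells and 13.9% of NK cells, and their part in these differences was not tested.

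The ranges of Fosb (-0.61), Dusp1 (-0.53), Egr1 (-0.36), Nfkbia (-0.30) and Junb (-0.29) overlapped between CD8 T cells and NK cells. Atf3 was 0.102 to 0.196 in CD8 T cells and 0.143 to 0.292 in NK cells, which was not called (adjusted p = 0.120, edgeR). The lower calls of Egr1, Junb and Nfkbia were the ones lost when a tumor was left out, and 6 to 10 genes were then lower, the fewest without the Lyve1CreCsf1rfl/fl tumor of run 1. The Nfkbia call was also lost with total UMIs as the only scaling (adjusted p = 0.0724, edgeR).

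With them, 11 of 26 other early response genes were lower and 3 higher (median -0.47, against 0.02 for all genes), among them Klf2, a quiescence factor, at -1.51 (SE 0.15). Decay factors were lower in 3 of 6 and higher in 0, with Zfp36l2 at -1.30 (SE 0.12), and NF-kB feedback genes in 4 of 12 and 0, with Nfkb1 at -0.81 (SE 0.09). Nr4a1 was lower by -1.63 (SE 0.11) whereas Nr4a2 was higher by 0.92 (SE 0.19), the list giving 1 of 7 higher and 2 lower. Other AP-1 genes gave 2 of 11 higher and 4 lower, serum response partners 1 of 7 and 2, phosphatases 2 of 10 and 3, heat shock genes 4 of 14 and 2, and cytokines 0 of 11 and 2.

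Regulatory T cells, which carry Foxp3, differed from CD8 T cells in both directions. Of the 10 genes 4 were higher and 5 lower, where 13.8% of 9672 genes were called higher and 13.8% lower. The 3 feedback genes and Junb were the higher ones: Nfkbia was 6.14 to 6.78 against 2.54 to 3.93, a log2 fold change of 0.90 (SE 0.08, adjusted p = 1.49e-07, edgeR), and Dusp1 was 2.87 to 3.71 against 1.43 to 2.04, a change of 0.62 (SE 0.08). Zfp36 was higher by 0.53 (SE 0.10) and Junb by 0.32 (SE 0.07), in 4 of 4 tumors each, with overlapping ranges.

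Fosb was lower by -1.89 (SE 0.12), with 0.174 to 0.293 in regulatory T cells and 0.607 to 1.13 in CD8 T cells. Egr1 was lower by -0.63 (SE 0.11), Ier2 by -0.51 (SE 0.09), Jun by -0.45 (SE 0.09) and Fos by -0.31 (SE 0.11). Atf3 was not called (adjusted p = 0.232, edgeR). Only the Fos call was lost with total UMIs as scaling, which moved the median of all genes from -0.01 to 0.13 and gave 2139 genes higher and 867 lower against 1338 and 1331.

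**Figure D4:**
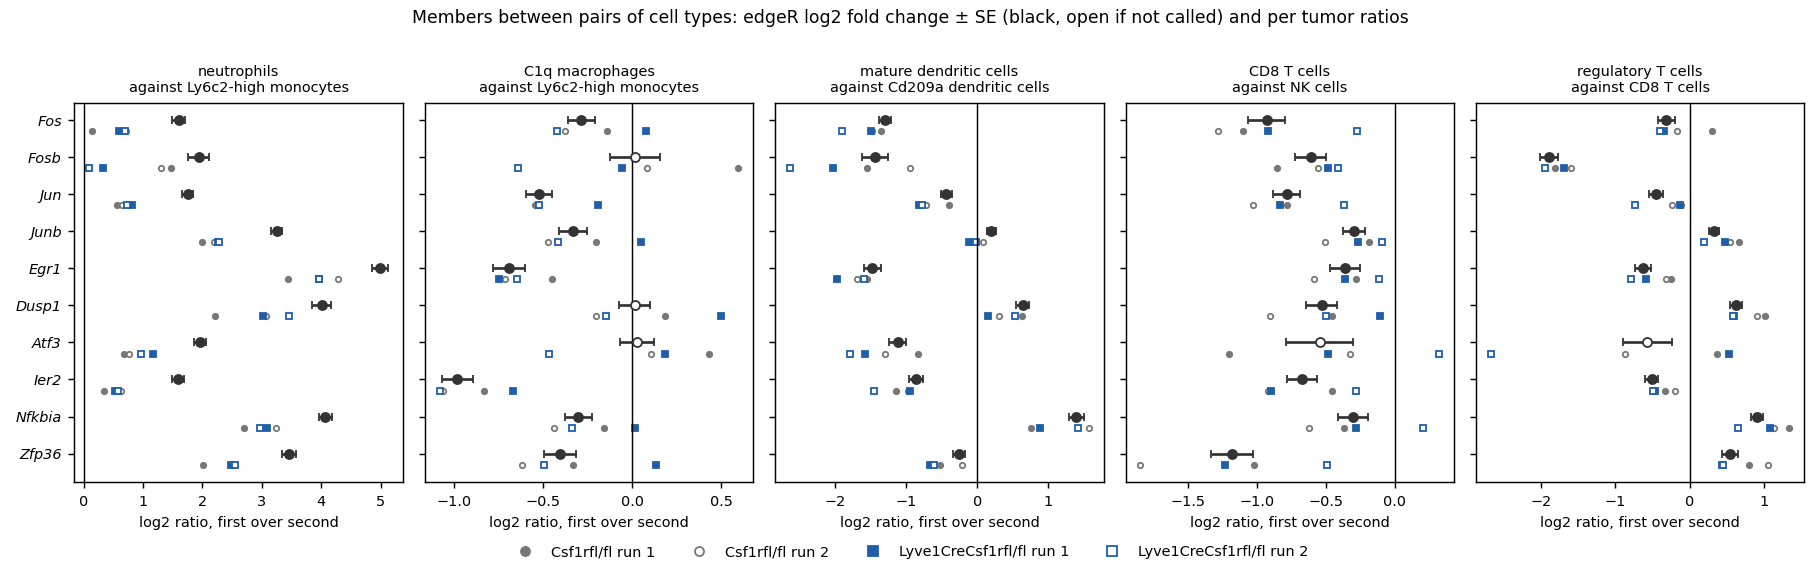
edgeR log2 fold change ± SE of each gene in 5 pairs of cell types (black circles, open where not called), with the log2 ratio of UMIs per 10000 in each of 4 tumors under it. All 10 circles lie above 0 for neutrophils, and the mature dendritic cells and regulatory T cells show genes on both sides of 0.

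NF-kB feedback genes were higher in regulatory T cells in 7 of 12 and lower in 0 (median 0.43), with Bcl3 at 1.11 (SE 0.14) and Tnip1 at 0.73 (SE 0.10). The list of the ZFP36 family and its partners, with 2 of 6 higher and 2 lower, included the relative Zfp36l1, higher by 1.54 (SE 0.08). It also held the antiproliferative Btg2, lower by -0.85 (SE 0.10). Nr4a2 was lower by -3.11 (SE 0.13) and Nr4a1 higher by 1.13 (SE 0.14), 2 of 7 factors being higher and 1 lower. Cytokines gave 1 of 12 higher and 4 lower, with Areg higher by 4.03 (SE 0.21) and Ifng lower by -4.58 (SE 0.15). Early response genes gave 8 of 26 higher and 7 lower, other AP-1 genes 3 of 12 and 2, serum response partners 3 of 7 and 1, phosphatases 4 of 10 and 3, and heat shock genes 1 of 14 and 3.

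The genotypes were compared next, since the study asked how loss of LYVE-1+ macrophages alters the remaining cells. Within the 13 types that had at least 30 cells in every tumor, 0 of 129 tested pairs of gene and type were called at n = 2 tumors per genotype, and 26 of 104646 pairs over all genes, or 0.0248%, were called. edgeR gave 8 of the 129 pairs an unadjusted p under 0.05, which some pairs reach even where nothing differs. The share of all genes that reached it is not given, so no difference is read from this count. The smallest adjusted p was 0.622 in edgeR, and DESeq2's Wald test also called 0. The log2 fold changes ran from -1.65 to 0.50 with a median SE of 0.27, so that differences of moderate size were within the error. An exact permutation test of 2 against 2 tumors cannot give a two-sided p below 0.333.

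When the run entered as a block, 2 of the 129 pairs were called, where 0.225% of all pairs were. Dusp1 was lower in Ly6c2-high monocytes of Lyve1CreCsf1rfl/fl tumors by -0.37 (adjusted p = 0.0390, edgeR), with 5.06 (run 1) and 5.63 (run 2) in Csf1rfl/fl tumors against 3.91 and 4.36 in Lyve1CreCsf1rfl/fl tumors, where the genotypes did not overlap. Egr1 was lower in tumor or stromal cells by -1.78 (adjusted p = 0.0209, edgeR), with 0.120 and 0.351 against 0.0194 and 0.125, which overlap and rest on 105 UMIs. The share of neutrophil RNA gauged above equalled 9.16% to 140% of the Egr1 in these cells, and its part in this call was not tested. Egr1 in tumor or stromal cells was called without the Csf1rfl/fl tumor of run 1 (-2.28, edgeR) or without the Lyve1CreCsf1rfl/fl tumor of run 2 (-3.30, edgeR), fits in which the lone tumor of a genotype is assumed to vary like the others. Dusp1 was lower in the Lyve1CreCsf1rfl/fl tumor of both runs in 9 of 13 types and higher in both in 2, namely neutrophils and CD8 T cells, and these types come from the same 4 tumors. Among the members, Dusp1 had the fewest types in which the 2 runs went opposite ways, at 2. Atf3 had 4 such types, and Jun and Nfkbia had 11 each. Over all members, 56 of the 129 pairs went the same way in both runs. How often genes outside the members did so was not counted.

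Some other pairs had genotypes that did not overlap and no call in either fit. In plasmacytoid dendritic cells Egr1 was 0.771 and 0.810 in the Csf1rfl/fl tumors and 0.379 and 0.336 in the Lyve1CreCsf1rfl/fl tumors, a log2 fold change of -1.18 (SE 0.34, adjusted p = 0.699, edgeR) on 152 UMIs. Sums of some marker lists of other cells in the plasmacytoid gate were lower in the same tumors. Those of C1q macrophages, 7 of 8 detected, were 5.56 and 2.17 against 0.757 and 0.951 UMIs per 10000. Those of Arg1 macrophages, all 8 detected, were 5.28 and 4.86 against 3.75 and 2.71, and those of neutrophils, all 10 detected, 6.12 and 6.03 against 4.37 and 3.30. S100a8 and S100a9 alone summed to 4.67 and 2.64 against 3.58 and 2.35, which overlap. Dusp1 in cDC1 was 2.44 and 1.61 against 0.622 and 1.43, a change of -0.95 (SE 0.34, adjusted p = 0.622, edgeR), which was called without the Csf1rfl/fl tumor of run 2 (-1.28, adjusted p = 0.0148, edgeR) and with stricter gates (-1.60, adjusted p = 0.0137, edgeR). In the cDC1 gate all 8 C1q macrophage markers were detected and summed to 23.7 and 14.2 in the Csf1rfl/fl tumors against 2.77 and 6.72 in the Lyve1CreCsf1rfl/fl tumors, and C1q macrophages themselves held 3.94 to 5.74 of Dusp1, more than any cDC1 value.

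In neutrophils Atf3 was higher in both Lyve1CreCsf1rfl/fl tumors, by 0.48 (SE 0.29), and Fosb lower in both, by -0.75 (SE 0.32), and neither was called. All 8 Arg1 macrophage markers were detected in the neutrophil gate, with sums of 22.5 and 19.1 in Csf1rfl/fl and 27.7 and 26.1 in Lyve1CreCsf1rfl/fl tumors, and all 8 plasmacytoid markers, with 2.11 and 1.78 against 1.27 and 0.796. The part of these markers in the genotype differences was not tested. Over the 13 types 33 of the 129 pairs had genotypes that did not overlap, where 23.0% of all 104646 pairs did not.

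Of the 9 lists, 8 had 0 calls in edgeR over 71 to 324 pairs of gene and type each, and the cytokines and chemokines had 0 higher and 2 lower of 133 pairs. The genotype effect on each of the 10 genes was also compared between the 2 types of the 5 pairs above, a test added after the data were seen, and 0 of 50 differences were called by edgeR, the nearest being Fosb between neutrophils and Ly6c2-high monocytes (-1.16, SE 0.23, adjusted p = 0.111).

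The tumors of the 2 Chromium runs, which are also different animals, were compared last. With genotype as a covariate, 4 of 129 pairs were higher in run 1, where 5.42% of all pairs were called higher, and 8 were lower, where 1.89% were called lower. Of the 8, 4 were in neutrophils, where 3.29% of 7713 genes were called lower in run 1. Egr1 was lower in run 1 neutrophils by -0.83 (SE 0.18, adjusted p = 0.000253, edgeR), Dusp1 by -0.66 (SE 0.18), Zfp36 by -0.56 (SE 0.18) and Fosb by -0.56 (SE 0.20). The plot of neutrophil levels by run shows all 10 genes higher in run 2 within both genotypes, as were 42.7% of the 7713 genes tested. The runs did not overlap for 8 of the 10, Fosb and Atf3 being the exceptions, where 52.5% of all genes did not overlap.

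**Figure D5:**
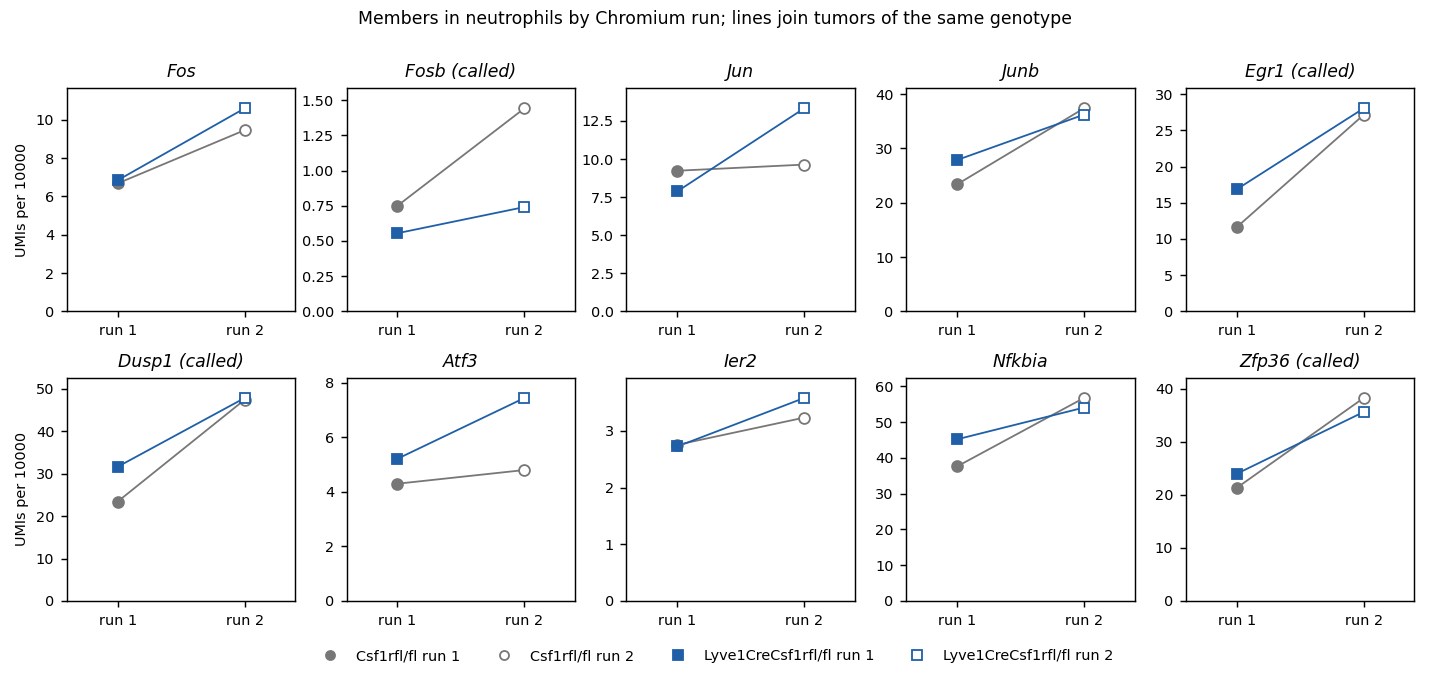
Level of each gene in neutrophils in UMIs per 10000 by Chromium run, with lines that join the tumors of the same genotype. Every line rises from run 1 to run 2, and the 4 titles marked as called are those past the adjusted threshold of edgeR.

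Several other measures differed between the runs in the same neutrophils. The median was 2209 and 2286 UMIs per cell in run 1 and 1760 and 1749 in run 2, the median mitochondrial share 0.524% and 0.626% against 0.384% and 0.358%, and the share of Scrublet doublets 7.05% and 7.15% against 2.66% and 2.62%. The summed level of the heat shock list was 22.0 and 21.6 in run 1 and 27.7 and 37.3 in run 2, with 2 of 12 genes called lower in run 1 and 0 higher. S100a8 and S100a9 took 1803 and 1402 of each 10000 UMIs in run 1 and 1291 and 1312 in run 2. Monocyte markers in the neutrophil gate, all 8 of them detected, did not separate the runs. They summed to 18.9 and 11.6 UMIs per 10000 in run 1 and 11.6 and 12.0 in run 2. The part of these measures in the result was not tested.

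In Ly6c2-high monocytes Fosb was lower in run 1 by -0.70 (SE 0.18, adjusted p = 0.00339, edgeR), Egr1 by -0.36 (SE 0.13) and Junb by -0.23 (SE 0.08), where 4.65% of 9295 genes were called lower. In these monocytes the heat shock list summed to 38.3 and 47.4 in run 1 and 58.4 and 58.7 in run 2. Their share of Scrublet doublets was 6.92% and 7.93% against 2.35% and 4.08%. The part of both measures in the calls was not tested. Junb was lower in run 1 within both genotypes in 10 of 13 types and higher in both in 0. The share of all genes lower in run 1 within both genotypes was counted in neutrophils only, where it was 42.7%. The calls higher in run 1 were Nfkbia in Cd209a dendritic cells (0.53, SE 0.12) and in tumor or stromal cells (0.55, SE 0.12, but -0.080 without Scrublet doublets, which were 37.4% of that type), Fos in mature dendritic cells (0.39, SE 0.13) and Atf3 in regulatory T cells (1.79, SE 0.47), the last on 58 UMIs. Arg1 macrophage markers, all 8 detected in each gate, were also higher in run 1 in these cells, with sums of 18.2 and 22.3 against 10.6 and 14.3 UMIs per 10000 in Cd209a dendritic cells, 55.5 and 69.4 against 39.9 and 45.8 in mature dendritic cells, and 6.19 and 6.07 against 2.55 and 2.18 in regulatory T cells. Their part in these calls was not tested.

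Egr1 was lower in run 1 in tumor or stromal cells by -1.64 (SE 0.35). There the 8 monocyte markers summed to 0.514 to 0.738 in run 1 and lay above that range in both tumors of run 2, at up to 1.61. S100a8 and S100a9 went in opposite directions by genotype: they summed to 1.70 (Csf1rfl/fl) and 2.26 (Lyve1CreCsf1rfl/fl) in run 1 and to 2.82 and 1.27 in run 2. The part of these transcripts in the call was not tested. Without Scrublet doublets 3 pairs were higher and 5 lower, and none of the 4 neutrophil calls was kept (Egr1 at -0.71, adjusted p = 0.107, edgeR). DESeq2's Wald test called 0 higher and 1 lower, which was Egr1 in neutrophils. With total UMIs as the only scaling 1 pair was higher, where 2.57% of all pairs were, and 21 were lower, where 5.98% were.

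The lists of related genes were also counted between the runs in neutrophils. Other EGR and NR4A factors were lower in run 1 in 2 of 7 and higher in 0 (Egr2 at -0.88, SE 0.29), the cytokines in 3 of 13 and 1, among them Hbegf at -0.90 (SE 0.20) and Osm at -0.66 (SE 0.18), and the early response genes in 2 of 25 and 1, with Csrnp1 at -0.80 (SE 0.18). The decay factors gave 1 of 6 lower and 0 higher, the phosphatases 1 of 6 and 0, the other AP-1 genes 1 of 13 and 1, and neither the NF-kB feedback genes (0 of 12) nor the serum response partners (0 of 7) had a call in edgeR.

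Over all 13 types the lists were read against the 5.42% of all pairs of gene and type called higher in run 1 and the 1.89% called lower. The cytokines and chemokines were higher in run 1 in 38 of 133 pairs (28.6%) and lower in 5 (3.76%), and the early response genes in 34 of 324 (10.5%) and 9 (2.78%). The decay factors were higher in 0 of 78 and lower in 13 (16.7%), the heat shock genes in 4 of 165 and 17 (10.3%), and the EGR and NR4A factors in 1 of 71 and 9 (12.7%). The NF-kB feedback genes gave 3 of 154 higher and 8 lower, other AP-1 genes 4 of 151 and 7, serum response partners 0 of 81 and 4, and phosphatases 3 of 95 and 2.

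With total UMIs only, where 2.57% of all pairs were called higher and 5.98% lower, the early response genes turned to 20 of 324 higher (6.17%) and 34 lower (10.5%). The cytokines and chemokines gave 33 of 133 higher (24.8%) and 9 lower (6.77%). The other lists had more lower than higher calls: 19 and 0 for the decay factors, 40 and 1 for the heat shock genes, 10 and 1 for the EGR and NR4A factors, 23 and 0 for the NF-kB feedback genes, 11 and 0 for other AP-1 genes, 11 and 0 for serum response partners, and 7 and 3 for the phosphatases.

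Genes whose mean level over the 15 types tracked a member most closely were found among 5456 genes, by Pearson's r of log2(UMIs per 10000 + 0.1). For Atf3 these were App (r = 0.986) and Pilra, for Dusp1 Ccrl2 (r = 0.979), Resf1 and Ets2, for Egr1 Cpeb2 (r = 0.959) and Ppp1r3b, and for Fos Kctd12 (r = 0.958) and Pik3ap1. Nfkbia was closest to Tgif1 (r = 0.951), Zfp36 to Baz2b (r = 0.940) and Ier5, Fosb to Elmsan1 (r = 0.930), Ier2 to Fosl2 (r = 0.925), Jun to Treml2 (r = 0.919), and Junb to Vasp (r = 0.915), Ppp1r15a and Mxd1. The 15 types share tumors and libraries.

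Among the 10 genes themselves, Egr1 and Dusp1 (r = 0.914), Dusp1 and Nfkbia (r = 0.909) and Junb and Dusp1 (r = 0.903) were the most alike over the 15 types. Fosb was least like the rest, with r = 0.112 to Dusp1, -0.0110 to Atf3 and -0.112 to Nfkbia.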

How the data were processed

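The authors aligned the reads to mm10 with Cell Ranger 6.0.1 and deposited UMI counts per gene and per hashtag, together with a Seurat table of SCTransform-corrected values, here treated as a score and used only to name the kept cells (singlets with under 5% mitochondrial UMIs, outside 4 clusters that the authors found specific to the second Lyve1CreCsf1rfl/fl tumor and removed from every tumor). A deposited cell table gives the genotype of each hashtag and run. From there the higher hashtag decided the tumor of a cell, which was gated by marker UMIs, and its counts summed per tumor and type. Types with at least 30 cells in every tumor were fitted with edgeR 4.0.16 in R 4.3.3 (quasi-likelihood test, TMM, filterByExpr, Benjamini-Hochberg over all genes, threshold 0.05). Pairs of types were blocked by tumor, the genotype fit had no covariate, and the run fit had genotype as covariate. SEs and fold changes are on the log2 scale. DESeq2 1.42.0, other scalings, filters and gates, thinning, and leaving out doublets, cycling cells or each tumor were alternatives. Cycling cells were left out only in the genotype and run fits, not between pairs of types. Total UMIs as the only scaling, and the tests of differences between effects, were chosen after seeing the data. The fit was tested on simulated data. The members and lists were chosen with earlier results of these data known. Beyond the members, up to 3 genes per list and comparison were named, those with the largest change past the threshold that went the same way in every tumor pair or both runs, and, of the 3 genes closest to each member, 1 to 3. One such gene is not reported here. The tumors are separate animals. Intervals of depth cover counting error only.

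Samples that share a run deviated together from their genotype means in each of the 13 types (r = 0.289 to 0.736). The fit with the run as replicate block was an alternative to the main genotype fit, which has no term for the run, and its calls are given beside it.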

Additional observations from a re-analysis of the deposited data

Results flagged for a closer look

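The effect of the run on Nfkbia differed between mature dendritic cells and Cd209a dendritic cells by -0.67 on the log2 scale (SE 0.13, adjusted p = 0.0247, edgeR), a test of the difference itself that called 18 of 8273 genes, or 0.218%. It was the only call among 50 such differences between run effects tested for the 10 genes. Nfkbia was 6.24 and 5.94 UMIs per 10000 in mature cells of run 1 and 7.40 and 8.06 in those of run 2, whereas in Cd209a cells it was 3.68 and 3.23 in run 1 and 2.50 and 3.03 in run 2. The direction was opposite in the 2 types within both genotypes. All 8 Arg1 macrophage markers were detected in both gates and summed to 18.2 and 22.3 in run 1 against 10.6 and 14.3 in run 2 in Cd209a cells, and to 55.5 and 69.4 against 39.9 and 45.8 in mature cells. Their part in the difference was not tested.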

How the results depend on the processing

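With the run as replicate block, 2 genotype pairs were called in place of 0. The same count was 1 with no filter on low counts, 1 with stricter gates and 0 to 1 when a tumor was left out. Pairs higher in run 1 fell from 4 to 0 with DESeq2's Wald test, 2 with a 3-fold hashtag margin, 1 with total UMIs and 2 without cycling cells. Pairs lower in run 1 went from 8 to 1 with DESeq2's Wald test, 5 without the filter, 1 with stricter gates, 21 with total UMIs and 5 without doublets. Members lower in C1q macrophages went from 7 to 4 with stricter gates. Among values that were not called, Fosb in C1q macrophages turned to -0.022 with DESeq2, -0.023 with no filter and -0.091 without doublets, and ran from -0.15 to 0.14 when a tumor was left out. Dusp1 turned to -0.023 with no filter and ran from -0.11 to 0.13, and Atf3 turned to -0.010 with no filter and ran from -0.079 to 0.16. Junb in mature dendritic cells turned to -0.043 with total UMIs, and Nfkbia by run in tumor or stromal cells to -0.080 without doublets. The causes were not tested. The other 137 recomputed counts stayed within 1.5 times their main value. Stricter gates and the fit without cycling cells covered 12 of 13 types, and the run fit has no residual degrees of freedom when a tumor is left out. Few UMIs limit Atf3 in regulatory T cells (58 in all), Atf3 in NK cells (81) and Egr1 in tumor or stromal cells (105).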
